A study of Mus musculus with 4 samples.

Results

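Dppa5a-high cells are LSD1KO cells of day 6 embryoid bodies (EBs) that were selected on 7 transcripts. A barcode was taken as a cell at 2000 UMIs and 1000 genes or more, and as Dppa5a-high at 10 or more Dppa5a UMIs together with a UMI of at least 2 of the genes Dppa2, Gtsf1l, Hormad1, Ooep, Fgf4 and Zfp534. In all, 586 of 7300 LSD1KO cells (8.03%) met the rule, 212 of 4850 in replicate 1 and 374 of 2450 in replicate 2. The other 6714 LSD1KO cells of the same libraries served for comparison. Since the cells were picked on measured transcripts, the differences between them and the other cells are described without a test.

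The libraries came from EBs of WT and LSD1KO mouse embryonic stem cells (ESCs) of the V6.5 line, with 2 biological replicates per genotype and 1 droplet library each. In LSD1KO cells, CRISPR had been used to remove the promoter of Lsd1 (gene symbol Kdm1a) along with the first exon, and the lines were grown from picked clones. The single-cell methods do not say whether the LSD1KO replicates were different clones, while bulk RNA-seq in the study used independent clones. ESCs of both genotypes had been kept in N2B27 medium with 2i and LIF, and were then left to aggregate in hanging drops for 6 days in serum medium without these factors.

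LSD1 removes methyl groups from histone H3 lysine residues and works within the CoREST complex, where it helps to close enhancers of the stem cell state when cells differentiate. Naive ESCs, which resemble the epiblast before implantation, express Klf2, Esrrb, Tfcp2l1, Zfp42 and Dppa3. On leaving that state they pass through a formative phase, in which Pou3f1, Fgf5, Dnmt3a and Dnmt3b are switched on while Pou5f1 is kept. Dppa5a encodes a small RNA-binding protein of pluripotent and germ cells, and several of the other rule genes act in germ cells or oocytes: Hormad1 in meiotic chromosome pairing, Ooep in the maternal complex of the egg, and Dppa2 as a chromatin-bound activator of germline promoters.

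The 4 libraries held 72285943 to 75406512 UMIs. Between 2 and 12 barcodes past the depth filter were shared by any pair of libraries, and 0 of the cells that met the rule were shared. In the Dppa5a-high cells the deleted gene was all but undetected: 2 of 212 cells (0.943%, exact 95% interval 0.114% to 3.37%) and 8 of 374 (2.14%, 0.928% to 4.17%) had a Kdm1a UMI. The share in the other LSD1KO cells was 1.51% and 1.97%. Of the WT cells that met the same rule, 14 of 14 and 115 of 124 (92.7%) had such a UMI. Intervals on shares cover counting error only.

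Dppa5a-high cells made up 4.37% (3.81% to 4.98%) and 15.3% (13.9% to 16.8%) of cells in LSD1KO replicates 1 and 2. The same rule found 14 of 3660 cells (0.383%, 0.209% to 0.641%) and 124 of 6338 (1.96%, 1.63% to 2.33%) in the WT replicates. Each LSD1KO share lay above each WT share, and the replicates of each genotype were further apart than their intervals. The rule asks for a number of UMIs, and the LSD1KO replicate 2 library was the deepest, with a median of 24642 UMIs per cell against 12835 in LSD1KO replicate 1, 14426 in WT replicate 1 and 9593 in WT replicate 2. With every cell thinned to 2000 UMIs and the rule lowered to 2 Dppa5a UMIs and 1 other rule gene, the shares were 2.66% and 6.82% in LSD1KO and 0.109% and 1.44% in WT. Dppa5a-high cells were deeper than the rest of their library, with medians of 17364 against 12684 UMIs in replicate 1 and 32906 against 23296 in replicate 2.

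Dppa5a itself averaged 2674 and 2171 CPM (UMIs of the gene scaled to a common total of UMIs) in the Dppa5a-high cells of replicates 1 and 2, and 68.8 and 94.1 CPM in the other LSD1KO cells. Per cell it ranged from 10 UMIs, the limit of the rule, to 202 and 437, with medians of 40 and 55. Thinned to 2000 UMIs, 95.3% and 91.2% of Dppa5a-high cells held a Dppa5a UMI, against 8.52% and 12.9% of other LSD1KO cells. WT cells that failed the rule, of which 0.85% and 1.74% held a Pou5f1 UMI at that depth, held one of Dppa5a in 0.768% and 1.95% of cases. Without thinning, 21.3% and 36.1% of other LSD1KO cells and 2.93% and 4.63% of other WT cells had a Dppa5a UMI. In free RNA, taken from barcodes of 10 to 100 UMIs, Dppa5a stood at 251 and 479 CPM in the LSD1KO libraries and at up to 169 CPM in WT, and its part in the shares of other cells was not tested.

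Among the other rule genes, Dppa2 was found most widely, in 72.2% and 86.1% of Dppa5a-high cells, at 100 and 81.4 CPM. Hormad1 was found in 68.4% and 58.0% of them, at 99.2 and 58.0 CPM, and Ooep in 56.1% and 66.8%, at 68.7 and 51.7 CPM. Fgf4, a growth factor made by pluripotent cells, averaged 37.5 and 36.9 CPM, Gtsf1l, a relative of a piRNA pathway factor, 40.1 and 25.7 CPM, and the zinc finger gene Zfp534 30.5 and 20.2 CPM. None of these 6 genes exceeded 7.85 CPM in the other LSD1KO cells. All 6 were found together in 4.25% and 8.02% of Dppa5a-high cells, while 34.4% and 25.9% held exactly 2 of them. Dppa5a and Ooep are neighbours on the minus strand of chromosome 9 in mm9, at 78214859 to 78215984 and 78223916 to 78226532, with 7931 bases between them.

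At the edge of the rule the genes did not all behave alike. LSD1KO cells with 10 to 12 Dppa5a UMIs numbered 10 and 18 in the replicates, and averaged 7.07 and 20.2 CPM of Klf2, 375 and 113 CPM of Dppa3 and 84.8 and 156 CPM of Pou3f1. Those with 8 or 9 UMIs, just outside the rule, numbered 14 and 14, and averaged 11.0 and 2.7 CPM of Klf2, 38.6 and 10.8 CPM of Dppa3 and 132 and 103 CPM of Pou3f1. Dppa3 was thus higher just inside the edge in both replicates, Klf2 and Pou3f1 in replicate 2 only. On the other axis, the 118 and 123 cells that had enough Dppa5a but at most 1 other rule gene held 44.6 and 20.2 CPM of Dppa3. The 73 and 97 cells with exactly 2 other genes held 87.8 and 75.7 CPM of it.

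To see whether the cells lie together on transcripts that the rule did not use, the 20 nearest neighbours of each cell were found from all variable genes but the 7 rule genes. Of the neighbours of Dppa5a-high cells, 64.8% in replicate 1 and 73.3% in replicate 2 were Dppa5a-high, compared with 1.79% and 6.49% of the neighbours of other cells. In 68.4% and 80.5% of Dppa5a-high cells, most neighbours met the rule.

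Of 8941 genes that reached 10 CPM in the higher group of each library, 112 (1.25%) were 2-fold or more higher in Dppa5a-high cells than in the other LSD1KO cells in both libraries, and 162 (1.81%) were lower, with 5 CPM added to both sides. The median log2 fold of all these genes was -0.17 and -0.12, and TMM scaling moved it to -0.05 and -0.03. With TMM scaling 141 genes were higher and 124 lower, so that 53.2% of the called genes were higher instead of 40.9%. Replicate 1 alone gave 184 and 421 such genes, so the lower count in particular rests on requiring both libraries. Against the 878 and 757 other LSD1KO cells with 3 or more Pou5f1 UMIs, 134 of 8743 genes (1.53%) were higher and 85 (0.972%) lower, of which 109 and 79 were shared with the first comparison. A gene could be measured through the group in which it was high, so counts of genes higher or lower are descriptions only.

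**Figure D1:**
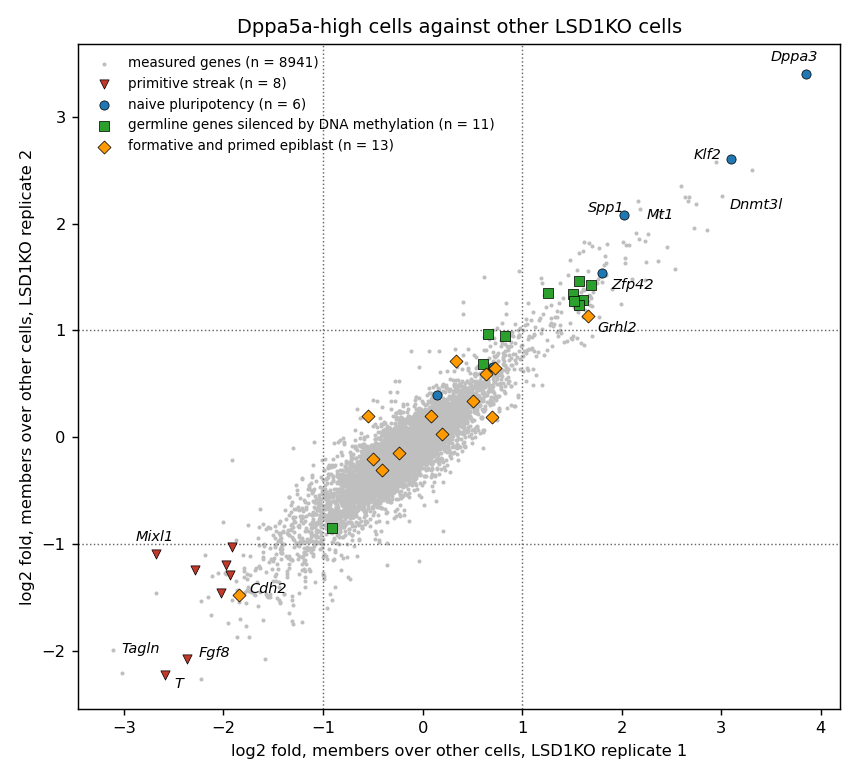
log2 fold of Dppa5a-high cells over other LSD1KO cells in replicate 1 (x axis) and replicate 2 (y axis), 5 CPM added to both sides, 1 point per gene, with 4 gene lists in colour and dotted lines at 2-fold. Dppa3 (3.85 and 3.40) and Klf2 (3.10 and 2.61) lie at the upper end, and T (-2.59 and -2.23) and Fgf8 (-2.37 and -2.08) at the lower end.

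Genes of naive pluripotency were raised in Dppa5a-high cells in part only. Of the 16 genes of this list 6 were measured, and 4 were higher than in other cells (1.25% over all genes). Of these, Klf2, Dppa3 and Spp1 reached 10 CPM in the Dppa5a-high cells only, so they had to be higher there to be measured. Dppa3, which protects maternal methylation after fertilisation, reached 140 and 87.0 CPM against 5.02 and 3.73 CPM (log2 fold 3.85 and 3.40). Klf2, a Krüppel-like factor of the naive network, reached 83.6 and 53.7 CPM against 5.31 and 4.61 CPM (3.10 and 2.61). Zfp42, also known as Rex1, and the secreted phosphoprotein gene Spp1 were higher too, at 114 and 91.5 CPM against 29.1 and 28.1 CPM, and at 52.1 and 48.0 CPM against 9.07 and 7.57 CPM. Klf5 (28.6 and 17.3 against 25.4 and 11.9 CPM) and Zfp57 (31.5 and 27.3 against 17.4 and 15.4 CPM) were measured and not called. The remaining genes of the list were sparse. Klf4, Tfcp2l1, Tbx3, Nr0b1, Prdm14, Tcl1, Nr5a2 and Gbx2, 8 of the 16, were below 10 CPM in Dppa5a-high cells of both replicates, and Esrrb, an orphan nuclear receptor central to the naive state, stood at 12.8 and 7.15 CPM. Though too low to be measured, Esrrb, Tcl1 and Nr0b1 were still 2-fold or more higher than in other LSD1KO cells in both replicates. Their log2 folds were 1.62 and 1.01, 1.38 and 1.04, and 1.32 and 1.12. The other genes not measured were within 2-fold, with Tbx3, Prdm14 and Gbx2 lower in both replicates.

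Transcripts of the formative and primed epiblast were as abundant in Dppa5a-high cells as in the remaining LSD1KO cells. Of 13 measured genes of that list, Grhl2, an activator of epithelial enhancers, was higher (29.2 and 23.8 against 5.81 and 8.03 CPM), Cdh2, which encodes N-cadherin, was lower (69.0 and 57.2 against 260 and 169 CPM), and the median log2 fold was 0.20 in each replicate. Grhl2 reached 10 CPM in the Dppa5a-high cells only, so it had to be higher there to be measured. Pou3f1, a POU factor of the epiblast and neural ectoderm, averaged 126 and 170 CPM, against 79.1 and 111 CPM in other cells. The de novo methyltransferase gene Dnmt3b averaged 276 and 335 CPM against 193 and 263 CPM, and Dnmt3a 155 and 177 CPM against 91.0 and 110 CPM. UMIs of naive and of formative genes were found under the same barcodes: 45.3% and 57.2% of Dppa5a-high cells held UMIs of Pou3f1 and of Klf2 or Dppa3, while 27.4% and 11.2% held Klf2 or Dppa3 without Pou3f1. In other LSD1KO cells, which were shallower (medians of 12684 and 23296 UMIs against 17364 and 32906), both kinds were found in 4.08% and 9.68%, and Pou3f1 with or without the others in 47.7% and 68.3%. Among WT cells that met the rule, 7.14% and 6.45% held both kinds, and 78.6% and 91.1% held Klf2 or Dppa3 alone. Depth per cell affects such shares. Thinned to 2000 UMIs, 2.36% and 5.61% of Dppa5a-high cells held both kinds, against 0.302% and 0.385% of other LSD1KO cells. At that depth Klf2 or Dppa3 was found in 29.7% and 18.2% of Dppa5a-high cells, against 1.64% and 2.5% of the others. For Pou3f1 the shares were 16.5% and 28.6%, against 13.0% and 17.0%. Whether both kinds shared barcodes more often than these single shares give was not tested. The free RNA of the LSD1KO libraries held 51.4 and 102 CPM of Pou3f1, against 0 and 3.65 CPM in WT, and no doublets were removed. Their part in the shares with Pou3f1 was not tested. At 2000 UMIs, Klf2 was seen in 13.7% and 9.09% of Dppa5a-high cells against 57.1% and 54.8% of WT cells that met the rule, and Pou3f1 in 16.5% and 28.6% against 0 of 14 cells (which allows up to 21.4%) and 1.61%.

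Most general pluripotency genes were not 2-fold higher in Dppa5a-high cells in both replicates, with median log2 folds of 0.44 and 0.33 over the list. Pou5f1 averaged 152 and 135 CPM, and 102 and 97.3 CPM in other LSD1KO cells (log2 fold 0.55 and 0.45). Sox2 averaged 74.7 and 84.8 CPM against 21.5 and 43.6 CPM, and Nanog 76.8 and 67.9 CPM against 61.7 and 78.4 CPM. Of the 10 genes of the list, Utf1 (231 and 291 against 85.5 and 143 CPM) and Dppa4, the partner of Dppa2 (111 and 92.6 against 17.8 and 18.1 CPM), were higher, and 0 were lower. Over all genes, 1.25% were higher and 1.81% lower. Of the genes behind the label ESC-like, Klf2 and Zfp42 were thus 2-fold higher than in other LSD1KO cells in both replicates. Sox2 was so in replicate 1 only (log2 fold 1.59 and 0.88), and Pou5f1 in neither. Most listed naive transcription factors were below 10 CPM in the Dppa5a-high cells of both replicates, and formative genes were present. The cells are therefore called by their leading gene, Dppa5a.

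Some genes that DNA methylation keeps silent outside the germline had more UMIs in Dppa5a-high cells. Of 22 listed genes, 11 were measured and 7 were higher (1.25% over all genes): Mael, Sycp1, Stk31, Tex19.1, Sohlh2, Tuba3a and Gtsf1. These 7 reached 10 CPM in the Dppa5a-high cells only, so they had to be higher there to be measured. Mael, a piRNA pathway gene, had 18.0 and 11.8 CPM against 2.53 and 1.89 CPM, and Tex19.1, a regulator of retrotransposons, 23.4 and 20.4 CPM against 4.55 and 4.2 CPM. Sycp1, of the synaptonemal complex, had 10.7 and 10.6 CPM in the Dppa5a-high cells. All of these were low in level, and Tuba3a shares nearly identical sequence with Tuba3b, so reads could have been split between those copies. Dnmt3l, the catalytically inactive partner of the de novo methyltransferases, was higher as well, at 95.3 and 61.1 CPM against 7.46 and 8.81 CPM, and was the only gene called among 7 measured of 8 listed DNA methylation enzymes. Dnmt3l too reached 10 CPM in the Dppa5a-high cells only, so it had to be higher there to be measured. Markers of primordial germ cell specification were not raised as a group. Of 9 genes 2 were measured, and Alpl (63.5 and 38.8 against 15.1 and 15.1 CPM) was higher, while Prdm1, Tfap2c, Nanos3 and Dnd1 each stood at 5.21 CPM or less. Of 14 genes in the list of the maternal complex and oocyte proteins, 8 were at 0 in both replicates, and the 1 that was measured was not called. Among the partners of Ooep in that complex, Nlrp5 was at 0, while Zbed3 had 32.5 and 26.5 CPM, Padi6 5.21 and 2.31 CPM and Khdc3 2.86 and 1.77 CPM. Genes of the 2-cell-like state summed to 1.82 and 1.77 CPM over 11 genes, 4 of them at 0.

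Promoter sequences were read from RefSeq (GRCm38.p6, a later build than the mm9 of the counts) for 4 of these genes, because their windows hold the letters of motifs that are bound by factors of the pluripotent and germline programmes in other systems. The motifs were the E-box CACGTG, which MAX-containing dimers bind and which reads the same on both strands, and the octamer ATGCAAAT, which POU factors bind, on either strand. Neither motif can overlap the other. Matches are in capitals. Of all 27025 genes with a window of 250 bases before to 50 after a start, 8.09% held the E-box and 1.97% the octamer. Of the 8941 genes measured against other cells, 80.6% had a window, and of those 12.6% held the E-box and 1.65% the octamer. Only 88 of the 112 higher genes (78.6%) had a window, of which 11 (12.5%) held the E-box and 6 (6.82%) the octamer. This was not tested, and no statement is made about the whole set. Dppa5a, Dppa2 and Dppa3 are named only. The windows of Hormad1 (chr3:95559427-95559726, plus strand, 2 matches) and Mael (chr1:166238695-166238994, minus strand) hold the E-box, and those of Zfp42 (chr8:43306960-43307259, minus strand, octamer in reverse) and Spp1 (chr5:104435942-104436241, plus strand) the octamer. A second start of Spp1, further upstream, has a window without the octamer, which is not printed. Of the 5 rule genes with a window, only Hormad1 holds a motif. The windows of Fgf4, Gtsf1l, Ooep, Zfp534, Klf2, Sohlh2 and Tex19.1 hold neither motif and are not printed.
Hormad1: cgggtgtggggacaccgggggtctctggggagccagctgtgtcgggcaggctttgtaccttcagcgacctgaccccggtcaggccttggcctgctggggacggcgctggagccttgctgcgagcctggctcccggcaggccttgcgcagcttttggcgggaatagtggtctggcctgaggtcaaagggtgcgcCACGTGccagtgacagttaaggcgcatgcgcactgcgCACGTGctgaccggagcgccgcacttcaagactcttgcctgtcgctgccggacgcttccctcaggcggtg
Mael: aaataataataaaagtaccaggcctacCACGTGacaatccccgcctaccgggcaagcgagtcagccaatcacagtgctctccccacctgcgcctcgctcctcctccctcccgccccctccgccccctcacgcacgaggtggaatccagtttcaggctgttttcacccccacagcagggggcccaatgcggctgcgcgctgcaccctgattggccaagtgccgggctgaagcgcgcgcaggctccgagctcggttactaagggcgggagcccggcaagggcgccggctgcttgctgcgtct
Zfp42: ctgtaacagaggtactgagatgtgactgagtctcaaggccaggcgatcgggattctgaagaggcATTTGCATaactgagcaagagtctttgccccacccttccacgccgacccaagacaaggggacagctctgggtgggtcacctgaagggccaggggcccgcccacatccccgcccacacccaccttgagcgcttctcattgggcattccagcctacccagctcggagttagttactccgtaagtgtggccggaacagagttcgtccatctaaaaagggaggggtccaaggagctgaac
Spp1: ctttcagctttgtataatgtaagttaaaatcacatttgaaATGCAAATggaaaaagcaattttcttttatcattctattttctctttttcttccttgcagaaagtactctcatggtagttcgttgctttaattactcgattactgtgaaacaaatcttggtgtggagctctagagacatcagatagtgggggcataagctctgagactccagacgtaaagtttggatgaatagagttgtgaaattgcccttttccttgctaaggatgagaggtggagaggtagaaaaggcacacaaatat
A match is a description of these letters and no evidence of binding.

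A block of zinc finger genes on chromosome 4 went with its member Zfp534, which the rule used. Of 17 other genes of the block in the count tables, 14 were measured, 8 were higher in Dppa5a-high cells (1.25% over all genes) and 0 lower: Zfp990, Zfp980, Zfp987, Zfp600, Zfp981, Rex2, Zfp982 and Zfp985. In the other cells, Zfp980, Zfp600, Zfp981 and Rex2 stood below 10 CPM in both replicates, and Zfp987 and Zfp985 in replicate 1. They had to be higher in Dppa5a-high cells there to be measured. Zfp981 averaged 66.4 and 55.0 CPM against 4.26 and 5.05 CPM (log2 fold 2.95 and 2.58), and Zfp987 86.4 and 73.2 CPM against 9.62 and 11.5 CPM (2.64 and 2.25). WT cells that met the rule held 53.1 and 54.9 CPM of Zfp981 and 83.5 and 87.1 CPM of Zfp987. Between genotypes 4 of 17 tested genes of the block passed, all higher in LSD1KO: Gm13238 (log2 fold change 2.13, adjusted p = 0.00868 in edgeR), Zfp992 (0.72, adjusted p = 0.00259), Zfp982 (0.43, adjusted p = 0.0361) and Zfp979 (0.55, adjusted p = 0.0409). Over all genes, 14.9% were higher in LSD1KO and 13.3% lower. The genes of the block are close copies of each other, so how reads were divided among them is uncertain. This block was singled out after its values had been seen.

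The other genes with the largest folds were of varied function. Tdh, the threonine dehydrogenase on which mouse ESCs depend, averaged 120 and 71.5 CPM against 7.61 and 8.54 CPM. With the other cells below 10 CPM, it had to be higher in Dppa5a-high cells to be measured. The metallothionein genes Mt1 and Mt2 were abundant, at 2983 and 2565 CPM against 653 and 577 CPM, and at 1371 and 1111 CPM against 429 and 310 CPM. Npl, a sialic acid lyase, had 173 and 173 CPM against 47.1 and 47.2 CPM. Trap1a, a tumour rejection antigen gene, Rpl39l, a ribosomal protein gene of the testis, and Cyct, the testis cytochrome c, completed the 15 genes with the largest folds, with log2 folds of 2.86 and 1.94, 2.16 and 2.21, and 2.03 and 1.63.

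Primitive streak genes were lower in Dppa5a-high cells. Of 14 listed genes 8 were measured, and all 8 were lower (1.81% over all genes): T, Mixl1, Eomes, Fgf8, Wnt3, Lhx1, Sp5 and Fst. Mixl1 and Wnt3 stood below 10 CPM in the Dppa5a-high cells of both replicates, and T, Lhx1 and Sp5 in replicate 2. They had to be lower there to be measured. T, or Brachyury, the defining factor of the streak, had 43.0 and 9.39 CPM against 283 and 62.3 CPM (log2 fold -2.59 and -2.23), and Fgf8, a growth factor of the streak, 27.6 and 15.5 CPM against 163 and 81.6 CPM. The list summed to 223 and 95 CPM in Dppa5a-high cells and to 1196 and 369 CPM in the others. Replicate 1 held more of these transcripts in both kinds of cell and in free RNA, where T stood at 218 CPM. At 2000 UMIs, 4.72% and 1.87% of Dppa5a-high cells held a T UMI, against 30.8% and 7.47% of other cells. The actin-binding gene Tagln had 68.2 and 99.2 CPM against 628 and 409 CPM. The cell adhesion and guidance genes Pcdh7, Epha4, Nrcam, Slit3, Ptprt and Gpc6 were also among the 15 with the smallest folds, with log2 folds of -1.52 to -2.26.

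Marker genes of other cell types summed to less than in other LSD1KO cells for neuronal, mesoderm and trophoblast lists, and to near the same for endoderm and endothelial lists. Over all genes, 1.25% were called higher and 1.81% lower. Neuronal genes summed to 492 and 500 CPM against 873 and 793 CPM in other cells, with 2 of 10 measured genes lower (Gap43 and Stmn3) and 0 higher. Stmn2, a tubulin regulator of growing neurites, still had 170 and 187 CPM in the Dppa5a-high cells. Of the neural progenitor list 3 of 15 were measured and Nes was lower (23.2 and 32.5 against 92.2 and 84.3 CPM). Mesoderm and cardiac genes summed to 43.2 and 55.8 CPM against 120 and 101 CPM, with Tnnt2 at 0 in both replicates and Actc1, 1 of 3 measured, lower. Endoderm genes summed to 59.4 and 51.3 CPM against 70.1 and 53.8 CPM, with Ttr at 0, Sox17 at 0.781 and 0.154 CPM and 0 of 2 measured genes called. Trophoblast genes summed to 149 and 144 CPM against 416 and 243 CPM, with Elf5 at 0 and Krt8 lower. Endothelial and blood genes summed to 40.6 and 47.6 CPM against 49.6 and 39.3 CPM, with Hbb-bh1 at 0, and Pecam1, which pluripotent cells also express, was higher, as 1 of 3 measured.

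No measured gene of the cell cycle, p53 target or integrated stress response lists was called between Dppa5a-high and other LSD1KO cells. Over all genes only 1.25% were called higher and 1.81% lower, so short lists without a call say little. In the S phase and the G2 and M phase lists 0 of 14 and 0 of 14 measured genes were called, and their median log2 folds lay between -0.05 and 0.01. The p53 target list had 0 of 11 and the integrated stress response list 0 of 9 genes called, and the CoREST list 0 of 8. Of 12 measured glycolysis and hypoxia genes, Pdk1, a kinase that limits pyruvate oxidation, was higher (81.8 and 81.2 against 28.1 and 33.2 CPM). The Nodal list had 0 of 9 called, and the FGF and ERK list 1 of 8, which was Fgf8.

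**Figure D2:**
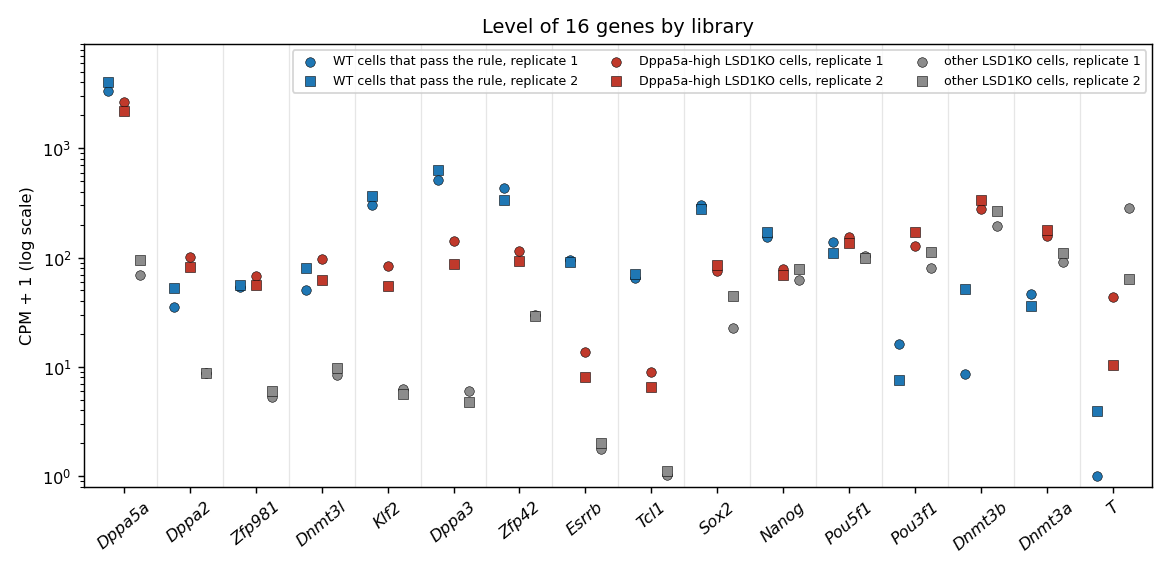
Level of 16 genes in CPM plus 1 (log axis) in WT cells that meet the rule (blue), Dppa5a-high LSD1KO cells (red) and other LSD1KO cells (grey), with circles for replicate 1 and squares for replicate 2. Klf2, Dppa3 and Zfp42 in the Dppa5a-high cells lie between the other groups, and Pou3f1, Dnmt3b and Dnmt3a lie above the WT cells that meet the rule.

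Within the Dppa5a-high cells, naive transcripts varied with the level of Dppa5a. The cells of each library were divided into the lowest, middle and highest part by Dppa5a CPM, and since Dppa5a chose the cells the trend is a description. From the lowest to the highest part, Klf2 went from 27.2 to 161 CPM in replicate 1 and from 22.0 to 126 CPM in replicate 2. Dppa3 went from 68.3 to 284 CPM and from 32.1 to 184 CPM. Esrrb was seen mainly in the highest part, with 37.2 and 20.3 CPM there and 2.65 and 1.85 CPM in the lowest, and Tcl1, a coactivator of AKT, showed 23.3 and 13.3 CPM against 0.663 and 1.03 CPM. The whole naive list summed to 253 CPM in the lowest and 990 CPM in the highest part of replicate 1, and to 184 and 732 CPM in replicate 2. The opposite order was seen for Pou3f1, from 159 to 67.4 CPM and from 191 to 118 CPM, for Dnmt3b, from 340 to 184 CPM and from 347 to 272 CPM, and for Tagln, from 96.2 to 13.8 CPM and from 185 to 29.1 CPM. Pou5f1 differed little, with 141 and 159 CPM in replicate 1 and 129 and 136 CPM in replicate 2. Cells of the lowest part were somewhat deeper, with medians of 19870 and 34649 UMIs against 15634 and 31560 UMIs in the highest, and the part of depth in these trends was not tested.

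**Figure D3:**
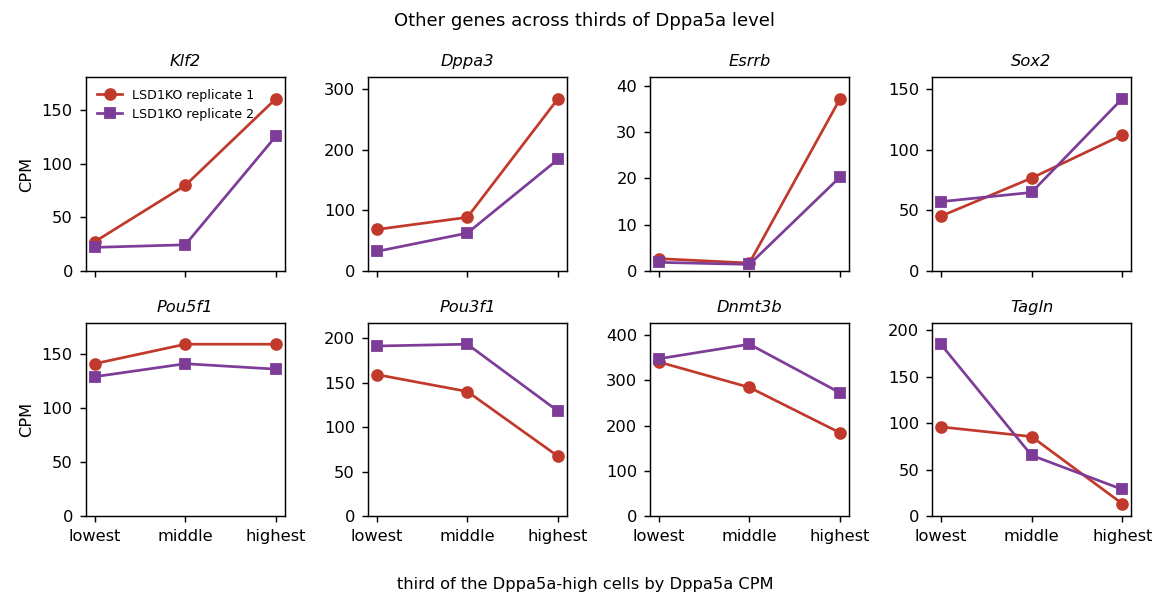
Level in CPM (y axes, each from 0) of 8 genes in the lowest, middle and highest part of Dppa5a-high cells by Dppa5a CPM (x axes), with 1 line per LSD1KO replicate. Klf2, Dppa3, Esrrb and Sox2 are highest in the cells with the most Dppa5a, Pou3f1, Dnmt3b and Tagln are lowest there, and Pou5f1 stays between 129 and 159 CPM.

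To ask how LSD1 loss changes cells that meet the same rule, UMIs were summed over these cells in each library and compared between genotypes with edgeR, as 2 libraries against 2. The WT side held 14 and 124 cells. Of 11434 genes tested, 1699 (14.9%) were higher and 1525 (13.3%) lower in LSD1KO at an adjusted p under 0.05, the rule genes left out. The counts depended on the libraries and the tool: without WT replicate 2 they were 952 and 614, without LSD1KO replicate 1 903 and 635, without LSD1KO replicate 2 925 and 677, and DESeq2 called 626 and 498. The p-values measure the spread between these libraries. Kdm1a showed the largest fall, from 232 and 250 CPM in WT to 0.521 and 0.692 CPM (log2 fold change -8.45, SE 0.23, adjusted p = 1.18e-13).

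All 15 tested genes of naive pluripotency were lower in LSD1KO cells than in WT cells that met the rule, with a median log2 fold change of -2.76, whereas the median of all genes was 0.01. Klf2 had 300 and 366 CPM in WT and 83.6 and 53.7 CPM in LSD1KO (log2 fold change -2.33, SE 0.18, adjusted p = 1.42e-07). Dppa3 had 509 and 637 CPM in WT (-2.36, SE 0.19, adjusted p = 1.43e-07), and Esrrb 94.9 and 90.1 CPM in WT (-3.31, SE 0.25, adjusted p = 8.27e-08). The nuclear receptor gene Nr5a2, the transcription factor gene Tfcp2l1 and Tcl1 fell by 4.03, 3.89 and 3.39 on the log2 scale. The groups did not overlap for any of these genes. With 2 libraries against 2 this carries little weight, and its share over all genes was not counted. With single libraries left out, 11 to 15 genes of the list passed, and DESeq2 called 12 of 15.

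Formative genes were higher in the LSD1KO cells. Of 13 tested genes 11 rose and 0 fell (14.9% and 13.3% over all genes), with a median log2 fold change of 1.58. Pou3f1 had 15.2 and 6.56 CPM in WT and 126 and 170 CPM in LSD1KO (4.30, SE 0.30, adjusted p = 3.51e-08), and its free RNA level differed between the genotypes in the same direction, as given above. Dnmt3b had 7.59 and 50.1 CPM in WT and 276 and 335 CPM in LSD1KO (2.89, SE 0.24, adjusted p = 2.06e-07). Dnmt3a, Fgf5, Lef1, Sox3, Sox4, Zic2, Grhl2, Cdh2 and Sall2 rose as well, and Otx2 and Foxd3 did not pass (adjusted p = 0.0646 and 0.0948). DESeq2 called 10 of the 13.

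Because the LSD1KO cells reached less Dppa5a than the WT cells under the same rule, the comparison was repeated, after the data had been seen, with cells of 2500 CPM Dppa5a or more in both genotypes, 11 and 97 WT and 99 and 128 LSD1KO cells. Dppa5a was then 3990 and 4896 CPM in WT and 4338 and 4449 CPM in LSD1KO. Klf2 was 238 and 410 CPM in WT against 148 and 121 CPM (log2 fold change -1.34, adjusted p = 2.42e-05), and Pou3f1 20.7 and 5.12 CPM against 95.2 and 118 CPM (3.97, adjusted p = 2.27e-07). Of the naive list 12 of 15 were lower, all but Klf5, Nr0b1 and Zfp57, and of the formative list 13 of 13 were higher. Over all 9554 genes tested at this setting, 1143 were higher and 895 lower. All 15 tested naive genes had a smaller fall than before. Esrrb moved from -3.31 to -1.99, Tcl1 from -3.39 to -2.23, Zfp42 from -1.79 to -1.11 and Nr0b1 from -1.75 to -0.78.

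General pluripotency genes were split between the genotypes. Beside the counts that follow, 14.9% of all genes were higher and 13.3% lower in LSD1KO. Pou5f1 did not pass (137 and 110 CPM in WT, 152 and 135 CPM in LSD1KO, adjusted p = 0.0951). Sox2 fell from 304 and 276 CPM to 74.7 and 84.8 CPM (-1.77, SE 0.13, adjusted p = 5.04e-08), and Nanog and Utf1 fell too (-1.15 and -0.44). The Nodal co-receptor gene Tdgf1 rose from 91.1 and 74.0 CPM to 445 and 414 CPM (2.52, SE 0.15, adjusted p = 8.44e-09), and the RNA-binding protein genes L1td1 and Lin28a rose by 0.89 and 1.05. Other LSD1KO cells held 442 and 386 CPM of Tdgf1. The free RNA of the LSD1KO libraries held 356 and 268 CPM of it, against 38.1 and 14.6 CPM in WT. The part of free RNA in this rise was not tested. In the Nodal list 4 of 11 genes rose, Nodal, its inhibitors Lefty1 and Lefty2, and Skil, and Cfc1 fell. For Lefty1, LSD1KO free RNA held 107 and 364 CPM beside 150 and 150 CPM in the Dppa5a-high cells, and its part was not tested. Without WT replicate 2 there were 2 rises. Of 12 FGF and ERK pathway genes 6 rose, Fgf5, Fgf15 and the feedback or target genes Spry2, Spry4, Dusp6 and Etv4, and the receptor gene Fgfr2 fell, with 3 rises called by DESeq2 or without WT replicate 2.

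Germline genes and germ cell markers moved apart. Of 17 tested germline genes that DNA methylation silences, 11 rose and Stk31 fell, with a median of 1.86 (14.9% higher and 13.3% lower over all genes). Sycp3, of the synaptonemal complex, had 15.2 and 13.1 CPM in WT and 41.4 and 51.9 CPM in LSD1KO (1.87, adjusted p = 6.82e-05). Taf7l and Slc25a31 had 0 UMIs in the WT cells and 5.46 to 7.29 CPM in LSD1KO. The rises rest on few UMIs: 1 was called without WT replicate 2, 7 and 8 without LSD1KO replicate 1 and 2, and 3 by DESeq2. In contrast, 6 of 7 primordial germ cell specification genes fell. Tfap2c, which with Prdm1 specifies germ cells, fell from 87.3 and 69.8 CPM to 3.65 and 4.08 CPM (-4.17, SE 0.26, adjusted p = 8.44e-09), and Prdm1, Nanos3, Dnd1, Kit and Alpl fell by 3.30, 2.54, 2.89, 2.38 and 0.71 on the log2 scale.

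Of 13 tested neuronal genes 8 rose, 5 without WT replicate 2, without LSD1KO replicate 2 or by DESeq2. Beside this and the next lists, 14.9% of all genes were higher and 13.3% lower. Nefm, a neurofilament gene, had 35.1 and 27.2 CPM in LSD1KO and 0 UMIs in the WT cells, and Gap43, a growth cone gene, 44.0 and 49.9 CPM against 0 and 0.597 CPM. Other LSD1KO cells held 67.8 and 47.2 CPM of Nefm, and how much of the signal in Dppa5a-high cells was free RNA was not tested. Of 5 tested neural progenitor genes Nes and Crabp1 rose and Sox21 fell. Without WT replicate 2 there were 0 rises and 0 falls, by DESeq2 1 and 0, and without either LSD1KO replicate 0 falls. Of 8 primitive streak genes T and Fst rose, with 1 rise without LSD1KO replicate 1, 3 without WT replicate 2 and 4 without WT replicate 1 or LSD1KO replicate 2. Of 6 tested mesoderm and cardiac genes Twist1 rose and Hand1 and Mef2c fell, and of 5 endoderm genes Dab2 rose and Foxa2, Cldn6 and Gata6 fell. The mesoderm falls became 0 without WT replicate 2 and without the highest Scrublet scores (doublet scores), 1 by DESeq2 and without LSD1KO replicate 1, 4 without LSD1KO replicate 2 and 6 without WT replicate 1. The endoderm falls became 0 without WT replicate 2, without either LSD1KO replicate and without the highest Scrublet scores, and 1 by DESeq2. Leaving out those scores took 28 of the 124 cells of WT replicate 2. Hand1 had 3.8 and 32.2 CPM in the WT cells and 1.56 and 1.15 CPM in LSD1KO. WT replicate 2 held 2467629 free RNA UMIs, against 104909 to 486043 in the other libraries, and its part in these falls was not tested. Krt8, the only 1 of 4 trophoblast genes called, fell, though not by DESeq2, and both Krt8 and Mef2c turned direction without WT replicate 2. Of 4 endothelial and blood genes Tal1, Lmo2 and Etv2 rose and Pecam1 fell, with 0 rises by DESeq2 and 1 without WT replicate 2 or without LSD1KO replicate 2.

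Of 11 tested p53 targets 9 rose, with a median of 0.66. Beside this and the next lists, 14.9% of all genes were higher and 13.3% lower. Cdkn1a, the cell cycle inhibitor p21, rose from 30.4 and 44.8 CPM to 178 and 138 CPM (1.93, SE 0.21, adjusted p = 3.84e-06), and Ccng1, Bbc3 and Phlda3 by 1.28, 1.39 and 1.06. The count was 4 by DESeq2 and 4, 4 and 5 without WT replicate 2 and without LSD1KO replicates 1 and 2. In the integrated stress response list 1 of 11 rose and 3 fell, of which Asns, asparagine synthetase, fell from 474 and 517 CPM to 91.9 and 72.2 CPM (-2.58, SE 0.14, adjusted p = 4.37e-09). The rise was lost by DESeq2 and without WT replicate 2, and falls numbered 1 by DESeq2, without WT replicate 2 and without either LSD1KO replicate. Of 13 glycolysis and hypoxia genes 5 rose, Ldha by 1.48 and Eno1 by 1.10, and 2 fell, with 3 rises by DESeq2, 0 falls by DESeq2, without WT replicate 2 and without LSD1KO replicate 1, and 1 fall without LSD1KO replicate 2. In the S phase list 4 of 14 rose, and in the G2 and M phase list 1 of 14 rose and 3 fell, beside 14.9% higher and 13.3% lower over all genes. The S phase rises became 1 by DESeq2 and without either LSD1KO replicate. The G2 and M phase falls became 0 without LSD1KO replicate 1 and 2 by DESeq2, and its rise was lost by DESeq2 and without either LSD1KO replicate. Of 11 CoREST complex genes Phf21a and Gse1 rose, and Rcor1 fell along with the deleted Kdm1a, counts near the 14.9% and 13.3% over all genes. There were 0 rises and 1 fall by DESeq2 and without WT replicate 2, and 1 of each without either LSD1KO replicate. Of 8 DNA methylation enzymes Uhrf1 rose and Tet1 and Gadd45b fell, with 1 fall without LSD1KO replicate 1.

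The genes with the largest rises at 50 CPM or more in LSD1KO were Pla2g1b (5.52), a secreted phospholipase, the kinase gene Pim2 (5.19), the metallothionein gene Mt3 (4.68), Gm32885 (4.35), Pou3f1, Sema6a (3.93), a semaphorin, Usp26 (3.47), Atxn1 (3.40), Ptgr1 (3.38) and Plac8 (3.36). Pim2 had 15.2 and 4.18 CPM in WT and 188 and 218 CPM in LSD1KO (SE 0.29, adjusted p = 4.37e-09), and the other LSD1KO cells held 229 and 310 CPM of it. Among genes at 50 CPM or more in both WT libraries, the largest falls below Kdm1a were those of Tfap2c, Nr5a2, Tfcp2l1, Tcl1, Cobl (-3.34), Glis3 (-3.33), Esrrb, 4930519F16Rik (-2.91) and Slit2 (-2.88).

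**Figure D4:**
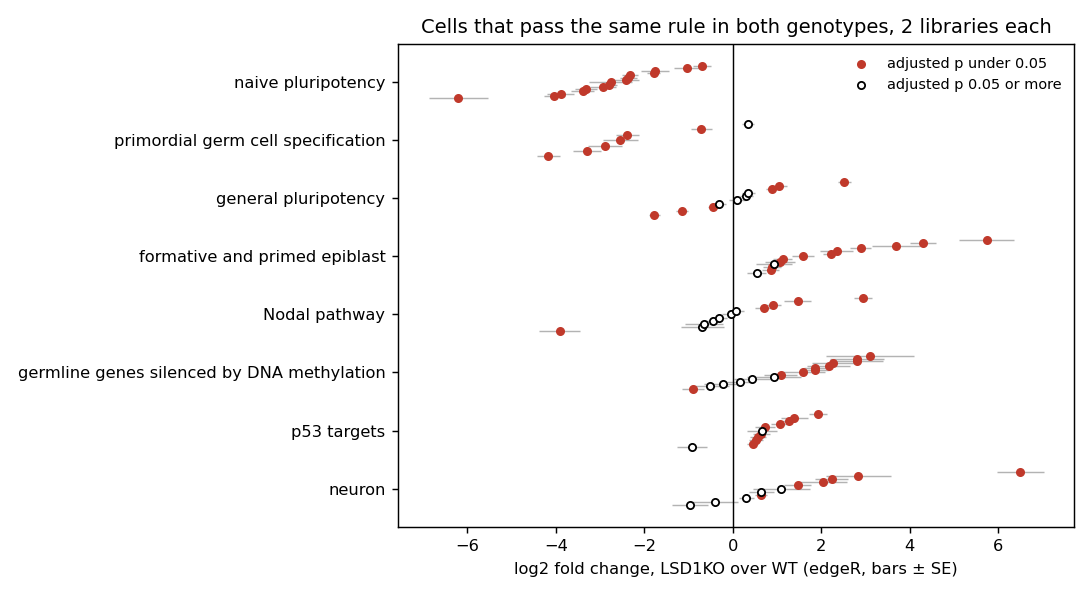
log2 fold change of LSD1KO over WT (x axis) for genes of 8 lists (y axis), among cells that meet the same rule, with SE as bars, filled points for an adjusted p under 0.05 in edgeR and genes with 0 UMIs in both WT libraries left out. All 15 naive genes lie to the left of 0 and the 13 formative genes to the right.

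The Dppa5a-high cells of both LSD1KO replicates were alike in most of these genes but not in all. Among genes of 50 CPM or more, those most in excess in replicate 1 were Fst (74.7 against 36.2 CPM), an activin antagonist, Exoc6b (158 against 93.2 CPM), Hormad1, Tdh and Zfp428 (80.5 against 47.9 CPM). Those in excess in replicate 2 were Ppp1r14b (189 against 354 CPM), Car4 (52.6 against 101 CPM), Fgf5 (39.3 against 72.5 CPM), Zfp608 (44.3 against 72.9 CPM) and H2ac8 (111 against 178 CPM). Fst, Ppp1r14b and Car4 differed in the same direction among the other cells of these libraries (320 against 108, 236 against 390 and 56.2 against 105 CPM). With 1 library per replicate these differences have no replicate check.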

How the data were processed

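Droplet libraries of WT and LSD1KO EBs were read at the 3′ end. The authors deposited raw UMI counts per gene and barcode, made with Cell Ranger 7.1.0 (default settings, mm9 per the submitters' notes), unfiltered and not pooled. Their clustering in Seurat 4.3.0 was not used. The deposited tables held no mitochondrial genes.

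Cells were barcodes with 2000 UMIs and 1000 genes or more, selected by the rule given above. The members and gene lists were chosen with earlier results of these data known. UMIs were summed per library and scaled to CPM by library totals. Genes at 10 CPM or more in the higher group were compared at 2-fold with 5 CPM added. Genotypes were compared with edgeR 4.0.16 in R 4.3.3 (TMM, filterByExpr, quasi-likelihood test, Benjamini-Hochberg adjustment), tested on simulated data, with DESeq2 1.42.0 as an alternative. Fold changes between genotypes come from that fit, and levels in CPM from library totals. Neighbours came from 20 principal components of log-normalized values (Scanpy 1.11.5, Python 3.11.15). Exact binomial intervals are at 95%.

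Scrublet called 1 cell in all as a doublet, so it did not work here and no doublets were removed. As an alternative, the highest scores were left out at 0.8% per 1000 cells, which took 13 of 212 and 33 of 374 Dppa5a-high cells, and 0 of 14 and 28 of 124 WT cells that met the rule (22.6% of the latter, against 5.76% of the other cells of WT replicate 2). Named genes were the 7 rule genes, the 15 largest and 15 smallest folds over other LSD1KO cells and the 10 largest rises and falls between genotypes (both at 50 CPM or more), the listed genes, and the 5 largest differences each way between LSD1KO replicates. Other genes were chosen after their values were seen. A few genes are not reported here and were left out of the list counts. Positions of genes follow the mm9 annotation.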

Additional observations from a re-analysis of the deposited data

Results flagged for a closer look

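In 2 genes, cells that met the rule differed from the other cells of their library in opposite directions in the genotypes, and this difference between genotypes was not tested. Plac8 was higher in Dppa5a-high cells than in other LSD1KO cells, by a mean of 1.18 on the log2 scale (1.21 and 1.15 in the replicates). In WT the same contrast gave -0.80 and -0.24, a mean of -0.52. Grhl2, an activator of epithelial enhancers, was higher by a mean of 1.40 in LSD1KO (1.66 and 1.14) and lower in WT, at -2.02 and -0.70, a mean of -1.36. The comparison cells differed too, with 30.6 and 26.4 CPM of Grhl2 in other WT cells and 5.81 and 8.03 CPM in other LSD1KO cells. The 14 cells of WT replicate 1 held only 263441 UMIs, so their 7.59 CPM of Plac8 and 3.8 CPM of Grhl2 rest on very few UMIs. At 2000 UMIs per cell, Pou5f1 was seen in 18.0% and 16.5% of the other LSD1KO cells and in 0.85% and 1.74% of the other WT cells.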

How the results depend on the processing

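The share of Dppa5a-high cells, 8.03% over both LSD1KO libraries, was 8.92% with 5 or more Dppa5a UMIs, 6.71% with 20 or more, 10.3% with 1 other rule gene, 5.70% with 3, 6.71% among cells of 500 UMIs and 500 genes, 4.05% thinned to 2000 UMIs and 3.11% at 2500 CPM Dppa5a (the last chosen after seeing the data), and ranged from 4.37% to 15.3% with 1 library left out. The 112 higher genes became 36 with 20 CPM added and 36 with a filter at 50 CPM, and 128 to 184 in single libraries. The 162 lower genes became 281 with 1 CPM added, 40 with 20 CPM, 81 with the filter at 50 CPM, and 194 to 421 in single libraries. Against Pou5f1-positive cells the 134 higher genes became 45 and 42 with 20 CPM added and the 50 CPM filter. The share of neighbours of Dppa5a-high cells that were Dppa5a-high, 69.0% over both libraries, was 67.8% to 70.8% with 10 neighbours, 10 principal components or the rule genes kept. Between genotypes the 1699 rises and 1525 falls became 626 and 498 with DESeq2, 321 and 280 (5494 genes tested) with cells thinned to 2000 UMIs, 1143 and 895 at 2500 CPM Dppa5a, and 903 to 2002 rises and 614 to 1766 falls with 1 library left out. Thinning leaves fewer genes to test, and otherwise the cause was not tested. With replicate numbers as a block there were 1404 rises and 1219 falls, of which 1392 and 1199 were shared. The labels give numbers only, and same-numbered libraries did not deviate together (r = -0.00677 across genes, which are not replicates). Single genes that reversed were Mki67 (0.03) and Phgdh (-0.02) with thinned cells, Krt8 (0.89) and Psat1 (0.05) without the highest Scrublet scores, and Mef2c, Krt8 and Bnip3 without WT replicate 2, with ranges of -2.64 to 7.77 (against a WT library at 0, so no measure of size), -1.30 to 0.12 and -1.06 to 0.48 with 1 library left out. Of the other values for single genes between genotypes, 2200 kept direction and side of the threshold, 64 newly passed and 256 no longer passed. Only 14 WT replicate 1 cells met the rule, which limits low genes most.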

Other observations

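Beyond the lists, further genes that act in meiosis or germ cells were among those 2-fold higher in Dppa5a-high cells than in other LSD1KO cells. They were chosen after their values were seen. Smc1b, Hormad2, Syce1, Morc1 and Dmrt1 were below 10 CPM in the other cells of both replicates. They had to be higher in Dppa5a-high cells to be measured. Smc1b, the meiotic cohesin, had 45 and 44.8 CPM against 6.34 and 8.24 CPM, Hormad2, a relative of Hormad1, 28.6 and 25.5 CPM against 4.36 and 3.69 CPM, and Syce1, of the synaptonemal complex, 11.7 and 12.1 CPM against 1.99 and 1.79 CPM. Morc1, which silences transposons in male germ cells, had 39.1 and 33.8 CPM against 1.90 and 3.39 CPM, and Dmrt1, a factor of testis and germ cell development, 29.7 and 29.2 CPM against 6.35 and 8.05 CPM. Between genotypes these genes did not move as a block. Syce1 rose in LSD1KO (2.97, SE 0.61, adjusted p = 0.00152), Morc1 and Smc1b fell (-1.52 and -0.64), and Hormad2 and Dmrt1 did not pass (adjusted p = 0.257 and 0.0954 in edgeR). The X-linked genes Xlr3c, Xlr5a and Xlr5b were also higher in Dppa5a-high cells (log2 folds of 1.07 to 1.80), but they are close copies and reads could have been divided among them.

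Cdh1, which encodes E-cadherin, had 186 and 187 CPM in Dppa5a-high cells against 78.6 and 63.2 CPM in other LSD1KO cells, while Vim, the intermediate filament gene vimentin, had 201 and 195 CPM against 889 and 488 CPM. Meg3, Rian and Mirg, the maternally expressed noncoding RNAs of an imprinted cluster, differed between genotypes, and were less than 2-fold apart between the LSD1KO cell groups. Meg3 had 152 and 112 CPM in WT cells that met the rule, 838 and 819 CPM in Dppa5a-high cells (2.83, SE 0.15, adjusted p = 2.84e-09 in edgeR) and 719 and 740 CPM in the other LSD1KO cells. Rian and Mirg rose by 2.66 and 2.90 in the same comparison. These genes too were picked after their values had been seen.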
